A study of Mus musculus with 12 samples.

Results

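The comparison was between wild-type pre-plasmablasts and wild-type activated B cells, the step in which cultured mouse B cells switch on the Blimp1 reporter while CD138 is still off. Its members were the 2 libraries titled as wild-type pre-plasmablasts and the 2 titled as wild-type activated B cells, 4 of 12 libraries in the series. B cells were taken from the spleens of C57BL/6 mice with B220 beads and grown for 4 days with 25 µg/ml lipopolysaccharide (LPS), a bacterial ligand of Toll-like receptor 4, before they were sorted by flow cytometry. Pre-plasmablasts (CD138- Blimp1-GFP+) and activated B cells (CD138- Blimp1-GFP-) are written PrePB and ActB here, and the CD138+ Blimp1-GFP+ plasmablasts of the same cultures are written PB. Wild-type (wt) cells were Mzb1+/+ Prdm1+/gfp. The knockout (ko) cells used for a side-by-side comparison were Mzb1-/- Prdm1+/gfp, sorted by the same gates, with 2 libraries in each population. Every group therefore carried 1 reporter allele in place of 1 of its Prdm1 alleles, and cells of all groups saw LPS, with no resting or unstimulated sample. Polyadenylated RNA was measured as FPKM, the number of sequenced fragments relative to the length of the transcript and to the size of the library.

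Blimp1, encoded by Prdm1, is the repressor that ends the B cell programme and opens the way to antibody secretion. It acts with Irf4 and with Xbp1, whose messenger RNA is spliced in the cytosol by the endoplasmic reticulum (ER) sensor Ern1 and then encodes the active transcription factor. Plasmablasts enlarge the ER and load it with chaperones, oxidoreductases and glycosylation enzymes, because immunoglobulin chains are folded, linked by disulfide bonds and glycosylated there before they leave for the Golgi. Pax5, Spib, Bach2 and other factors hold the B cell state and are silenced on this path.

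The 2 PrePB libraries summed to 539124 and 514886 FPKM and the 2 ActB libraries to 418966 and 451288 FPKM. At least 1 FPKM was reached by 10291 and 10304 genes in PrePB and by 10204 and 10180 genes in ActB. The files give no counts, so absolute depth is unknown. Read from the step size of low values, depth relative to ActB replicate 1 was 0.806 and 0.755 in the PrePB libraries and 1.04 in ActB replicate 2. Only 5.66%, 8.53% and 14.8% of the low genes compared stood at these ratios. The step may also follow the library size used in scaling and not the depth of sequencing, so these ratios are a rough guide. The replicates resembled each other closely, with r = 0.984 between their log2 values in PrePB and in ActB (across genes, which are no independent replicates). Xist, transcribed from the inactive X chromosome, stood at 35.3 FPKM in replicate 1 and 0.0321 FPKM in replicate 2 of PrePB, and at 81.4 FPKM in replicate 1 and 0.0232 FPKM in replicate 2 of ActB, while the Y-linked gene Eif2s3y was listed at 0 in replicate 1 of both groups. The replicate number was therefore tied to the sex of the animals in both groups, and the 2 libraries of a group were not repeats of 1 sample. With 1 library of each sex in each group, the 5 sex-linked transcripts tested could not pass as different between the groups, and limma called 0 of them (0 at an unadjusted p below 0.05). The labels do not say how many animals or cultures stand behind a library. The p-values measure the spread between these libraries, the difference between the sexes included.

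The sorted populations were checked against B cell markers, and the genes of this check that lie outside the naming rule were chosen after their values were seen. Cd79a, a signalling chain of the B cell receptor, lay at 1296 and 1422 FPKM in PrePB, against 697 and 919 FPKM in ActB. Cd79b, the other signalling chain, lay at 1010 and 1003 FPKM in PrePB, against 1117 and 1526 FPKM in ActB. Both populations thus carried B cell markers at high levels. Of 12 T cell markers in the files, 4 were tested and 3 were called higher, and their summed level was 22.7 and 22.6 FPKM in PrePB, against 4.07 and 4.29 FPKM in ActB. Cd28, the T cell costimulatory receptor that plasma cells also carry, made up most of that sum, with 12.2 and 16.1 FPKM in PrePB, against 1.62 and 1.28 FPKM in ActB. Cd3g, a chain of the T cell receptor complex, had 4.22 and 2.60 FPKM in PrePB, against 0.207 and 0.596 FPKM in ActB. Cd3d had 0.374 and 0.2998 FPKM in PrePB, against 0.0756 and 0.0725 FPKM in ActB. Cd4 had 0.0734 and 0.157 FPKM in PrePB and was listed at 0 in both ActB libraries. Zap70, another T cell marker, overlapped between the groups, with 0.155 and 0.198 FPKM in PrePB and 0.376 and 0.144 FPKM in ActB. The T cell chain Cd3e was listed at 0 in both PrePB libraries, and Cd8a at 0 in all 4. Macrophage and granulocyte markers summed to 22.2 and 18.1 FPKM in PrePB, against 97.6 and 102.9 FPKM in ActB. Of this sum Itgam (CD11b) held 3.44 and 2.46 FPKM in PrePB and 78.7 and 77.4 FPKM in ActB, and Adgre1, which encodes F4/80, held 0.279 and 0.633 FPKM in PrePB and 7.84 and 13.2 FPKM in ActB. The granule genes Mpo, Elane and S100a9 were listed at 0 in all 4 libraries, and of the 5 genes of this list that were tested, 1 rose and 2 fell. Of the other lists, 1 rose and 1 fell among 4 natural killer markers tested, and 2 rose and 3 fell among 6 dendritic cell markers. Of 3 erythroid and stromal markers tested, 2 fell. For comparison, 27.1% of all genes tested rose and 26.3% fell, by the rule given below. The natural killer list summed to 2.257 and 3.396 FPKM in PrePB, against 2.296 and 3.299 FPKM in ActB. The erythroid and stromal list summed to 10.2 and 12.03 FPKM in PrePB, against 43.3 and 58.8 FPKM in ActB. The dendritic list summed to 292 and 251 FPKM in PrePB, against 126 and 114 FPKM in ActB. The interferon-inducible Bst2 accounted for most of it, with 250.0 and 206 FPKM in PrePB and 65.9 and 62.2 FPKM in ActB. The part of such cells in the differences below was not tested, and in bulk RNA fewer cells of a type and less RNA per cell cannot be told apart.

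The step changed the transcriptome broadly. Rose and fell are used here of genes whose two-sided limma test, fitted over all 12 libraries, gave a Benjamini-Hochberg adjusted p below 0.05 over the 11069 genes tested. By that rule 5910 genes differed (53.4%), of which 2999 were higher in PrePB (27.1%) and 2911 were lower (26.3%). A change of at least 1 on the log2 scale was reached by 1801 of them (16.3%), with 1079 higher (9.75%) and 722 lower (6.52%). At least 4-fold was reached by 274 genes higher and 193 lower, and at least 16-fold by 22 higher and 19 lower. In 8371 genes (75.6%) the libraries of both groups did not overlap. The balance of directions depended on scaling. With each library rescaled to the same total FPKM, 2107 genes were higher and 4679 lower, and the median log2 change of all genes, -0.02 on the deposited scale, became -0.24. Under all 4 scalings tried, the deposited one included, 2064 genes were called higher and 2813 were called lower. Median-ratio scaling was close to the deposited scale, with 5904 genes called and a median log2 change of -0.0061, so the 4 are not separate checks. Small changes are therefore read below with the scaling in view.

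Prdm1 and Sdc1, the CD138 gene, were what the sort selected, directly or through the reporter, so their levels describe the gates. Prdm1 lay at 233 and 268 FPKM in PrePB, against 21.6 and 19.2 FPKM in ActB. Sdc1 lay at 4.91 and 5.24 FPKM in PrePB, against 0.989 and 0.978 FPKM in ActB, and it reached 76.3 and 88.2 FPKM in PB. Sdc1 transcript was thus present at a low level in cells sorted as CD138-. Xbp1 had 1579 and 1568 FPKM in PrePB, against 99.7 and 105 FPKM in ActB, a log2 change of 3.93 (SE 0.09, adjusted p = 2.02e-09). Jchain, which joins IgM and IgA into polymers, had 8738 and 9629 FPKM in PrePB, against 69.4 and 103 FPKM in ActB, and was 107-fold higher (log2 change 6.74, SE 0.35, adjusted p = 9.68e-08). Mzb1, a cochaperone of Hsp90b1 in the ER, had 10066 and 9926 FPKM in PrePB, against 845 and 1016 FPKM in ActB (log2 change 3.43, SE 0.13, adjusted p = 1.24e-08). The groups stood far apart in Xbp1, Jchain and Mzb1, which the sort did not select directly, and the label of pre-plasmablasts fits their levels. Mzb1 had the highest mean of all listed genes in PrePB, and Jchain came next. The rank is among listed genes only. No immunoglobulin heavy or light chain gene was among the 15 highest means of either group.

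The 15 largest rises were led by secreted proteins, ER proteins and inhibitory receptors. Slpi, a secreted protease inhibitor, had 492 and 2084 FPKM in PrePB, against 3.66 and 14.5 FPKM in ActB. Its replicates differed about as widely within each group, so that its log2 change of 6.90 carried an SE of 0.99 (adjusted p = 0.000175). Lag3, an inhibitory receptor that binds MHC class II, had 232 and 203 FPKM in PrePB, against 3.41 and 4.05 FPKM in ActB, and was 46.2-fold higher. Tigit, an inhibitory receptor of lymphocytes, had 78.3 and 62.6 FPKM in PrePB, against 1.34 and 0.964 FPKM in ActB. Neither receptor overlapped between the groups. Prg2, known as the major basic protein of eosinophil granules, had 38.6 and 52.5 FPKM in PrePB, against 0.134 and 0 FPKM in ActB. Fkbp11, a proline isomerase of the ER, had 209 and 195 FPKM in PrePB, against 4.92 and 4.87 FPKM in ActB, a log2 change of 5.11 (SE 0.14, adjusted p = 2.02e-09). Pik3cg encodes the catalytic subunit of PI3-kinase gamma and had 91.7 and 109 FPKM in PrePB, against 1.98 and 2.06 FPKM in ActB. The group also held Hid1, a Golgi protein of secretory cells, at 63.3 and 66.0 FPKM in PrePB, against 0.902 and 1.35 FPKM in ActB.

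Bhlha15, which encodes Mist1, a transcription factor of professional secretory cells, had 86.9 and 105 FPKM in PrePB, against 4.39 and 4.44 FPKM in ActB (log2 change 4.16, SE 0.13, adjusted p = 5.16e-09). Lax1, a membrane adaptor that dampens antigen receptor signals, had 295 and 312 FPKM in PrePB, against 15.8 and 14.9 FPKM in ActB. Derl3, a channel component of ER-associated degradation, had 347 and 349 FPKM in PrePB, against 17.8 and 18.5 FPKM in ActB. These 3 genes were 17.8-fold to 18.6-fold higher with close replicates. Selm, an ER selenoprotein, and Crisp3, a cysteine-rich secretory protein, rose by 4.26 and 4.16 on the log2 scale. 5031425E22Rik had 335 and 292 FPKM in PrePB, against 11 and 11 FPKM in ActB. Tmem52, a membrane protein, had 21.9 and 18 FPKM in PrePB and was listed at 0 in both ActB libraries, so no fold is given. In all 15 genes the libraries of both groups did not overlap, which the naming rule required.

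Of the 15 largest falls, 13 are described here, among them transcription factors and receptors of B cells. Spib, an Ets factor of B cells, had 12.2 and 15.7 FPKM in PrePB, against 395 and 482 FPKM in ActB. Klf2, a zinc finger factor that controls lymphocyte trafficking, had 4.92 and 5.11 FPKM in PrePB, against 119 and 152 FPKM in ActB. Both were at least an order of magnitude below their ActB level in both PrePB libraries. Cd22, a sialic acid-binding inhibitor of B cell receptor signals, had 12.7 and 12.7 FPKM in PrePB, against 305 and 308 FPKM in ActB. Tlr9, the endosomal receptor of CpG DNA, had 1.72 and 1.94 FPKM in PrePB, against 55.2 and 54.8 FPKM in ActB (log2 change -4.31, SE 0.12, adjusted p = 2.02e-09). Il10ra, a chain of the interleukin 10 receptor, had 3.87 and 4.68 FPKM in PrePB, against 87.0 and 101 FPKM in ActB.

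The other falls described here were of mixed function. Mpeg1, a pore-forming protein of macrophages, had 2.52 and 2.80 FPKM in PrePB, against 90.9 and 109 FPKM in ActB. Wfdc17 had 2.66 and 2.05 FPKM in PrePB, against 69.9 and 85.6 FPKM in ActB. Itgam, S100a4 (a calcium-binding protein), Ceacam1 (an adhesion receptor), Lrrc25, Haao (an enzyme of tryptophan breakdown) and Ffar1 (a fatty acid receptor) also fell, with log2 changes between -4.86 and -4.08. Itgam alone made up most of the macrophage and granulocyte sum given above in ActB, but not in PrePB. S100a4 and Ffar1 had the least even replicates in ActB, with 26.6 and 55.6 FPKM for S100a4 and 38.6 and 19.4 FPKM for Ffar1. Whether these transcripts came from B cells or from other cells in the gate was not tested.

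**Figure D1:**
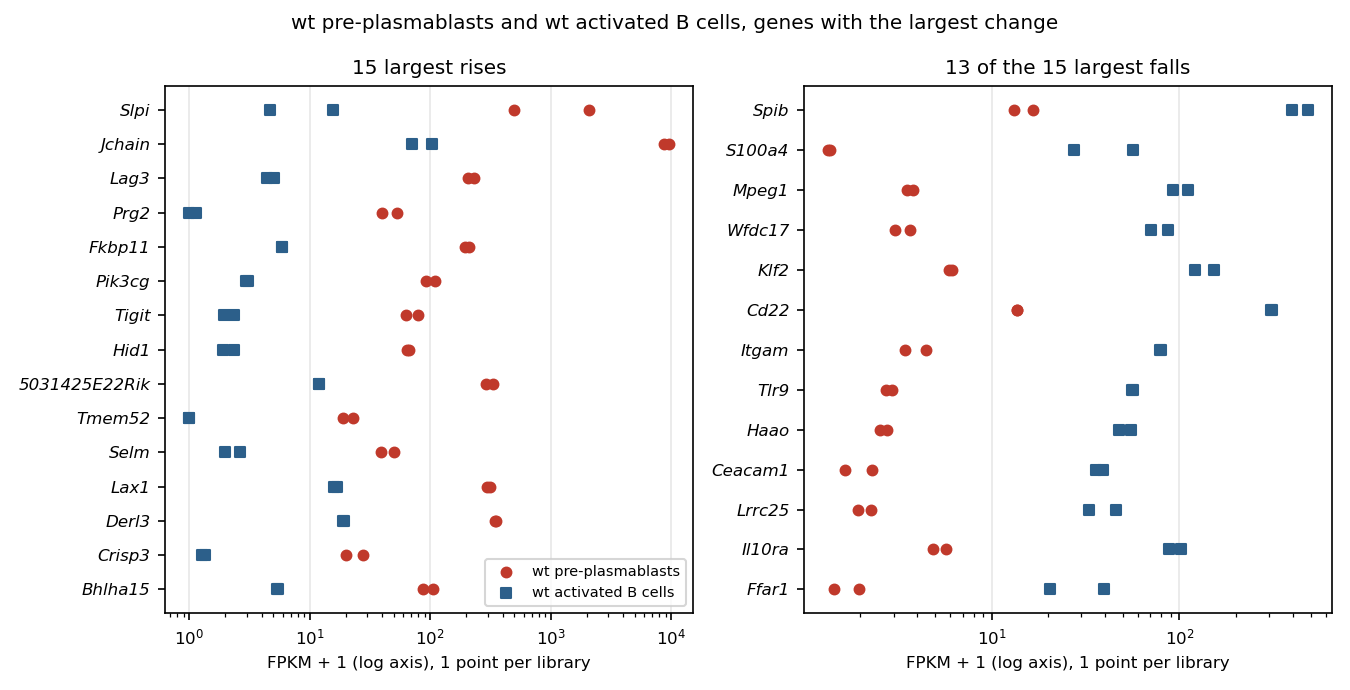
FPKM + 1 on a log axis in each wt PrePB library (red circles) and each wt ActB library (blue squares) for the 15 genes with the largest rise (left) and 13 of the 15 with the largest fall (right). Circles and squares do not overlap in any of the genes, and Slpi shows the widest distance between replicates.

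The gene lists below are read against all genes tested, of which 27.1% rose and 26.3% fell with a median log2 change of -0.02, so members in both directions do not by themselves set a list apart. Of 25 Blimp1-side transcription and elongation factors, 12 rose (48%) and 6 fell (24%), with a median log2 change of 0.23. The median was 0.0015 with equal totals, 0.47 without ActB replicate 1 and 0.07 without ActB replicate 2. Beside Prdm1 and Xbp1, the rises included Creb3l2, an ER-anchored transcription factor, with 41.4 and 52.6 FPKM in PrePB, against 3.57 and 2.64 FPKM in ActB. Eaf2, which binds the elongation factors of the Ell family, had 125 and 124 FPKM in PrePB, against 9.02 and 10.5 FPKM in ActB. Ell2 itself, which favours the secreted form of the immunoglobulin heavy chain, and Irf4 are outside the naming rule and were chosen after their values were seen. Ell2 had 196 and 199.7 FPKM in PrePB, against 21.6 and 23.1 FPKM in ActB (log2 change 3.09, SE 0.08, adjusted p = 2.02e-09). Irf4 changed less, with 223 and 240.4 FPKM in PrePB, against 76.2 and 64.5 FPKM in ActB (log2 change 1.71, SE 0.12, adjusted p = 8.29e-07). Among the 6 falls of this list, Id3, an inhibitor of E proteins and likewise chosen afterwards, had the largest. It had 2.65 and 1.20 FPKM in PrePB, against 21.7 and 19.9 FPKM in ActB, a log2 change of -2.94.

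Of 28 B cell identity transcription factors, 17 fell and 5 rose, with a median log2 change of -0.53. Pax5, which commits cells to the B lineage, had 13.6 and 13.8 FPKM in PrePB, against 151 and 147 FPKM in ActB (log2 change -3.35, SE 0.12, adjusted p = 1.20e-08). Bcl11a, a zinc finger repressor, had 5.93 and 4.26 FPKM in PrePB, against 60.6 and 57.1 FPKM in ActB. Other factors, chosen after their values were seen, fell less. Bach2, a repressor that opposes Blimp1, changed by -1.70, Ebf1 by -1.05 and Irf8 by -1.01 on the log2 scale. Not every factor of the B cell programme fell. Pou2af1, the coactivator also called OBF1 and likewise chosen afterwards, had 1442 and 1425 FPKM in PrePB, against 466 and 432 FPKM in ActB, a log2 change of 1.67 (SE 0.09, adjusted p = 1.31e-07). Bcl6, the germinal centre repressor, lay at 4.17 and 5.77 FPKM in PrePB, against 4.58 and 4.37 FPKM in ActB, where the groups overlapped and the test was not passed (adjusted p = 0.663). With equal totals 18 factors fell and 2 rose. The count of 5 rises became 3 without PrePB replicate 2 and without ActB replicate 2.

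Most genes of 5 lists of the secretory pathway rose, against 27.1% of all genes tested. Of 34 ER folding and oxidation genes, 33 rose and 1 fell, with a median log2 change of 2.45. Txndc5, a disulfide isomerase, had 1733 and 1781 FPKM in PrePB, against 103 and 99.0 FPKM in ActB, and was 17.3-fold higher. The list took 6.63% and 6.90% of all FPKM in PrePB, against 1.31% and 1.31% in ActB. Mzb1 belongs to this list and gave 10066 and 9926 of its 35759.5 and 35518.1 FPKM in PrePB. The gene that fell was Cnpy3, singled out after its value was seen, which helps Hsp90b1 fold Toll-like receptors. Cnpy3 had 9.16 and 8.31 FPKM in PrePB, against 69.6 and 75.1 FPKM in ActB, a log2 change of -2.91 (SE 0.13, adjusted p = 3.26e-08).

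Of 29 genes of ER-associated degradation and unfolded protein sensing, 28 rose and none fell, with a median log2 change of 1.35. Beside Derl3, the mannosidase-like lectins Edem2 and Edem1 and the lectin Os9, which pass misfolded glycoproteins on for degradation, were called. Edem2 had 342 and 281 FPKM in PrePB, against 36.2 and 34.5 FPKM in ActB. Edem1 had 464 and 475 FPKM in PrePB, against 72.7 and 72.2 FPKM in ActB, and Os9 rose by 2.60 on the log2 scale. Ern1, the sensor that splices Xbp1 and a gene chosen after its value was seen, had 31.2 and 38.1 FPKM in PrePB, against 8.07 and 5.14 FPKM in ActB.

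Of 28 translocon, signal peptidase and signal recognition genes, 24 rose and none fell, with a median log2 change of 1.60. With equal totals 23 rose and 1 fell. Ssr4 and Ssr2, subunits of the translocon-associated complex, were the largest changes, with 1222 and 1224 FPKM for Ssr4 in PrePB, against 144 and 160.2 FPKM in ActB. The signal peptidase subunits Spcs1 and Sec11c rose by 2.47 and 2.45 on the log2 scale. Of 40 N-glycosylation enzymes, 34 rose and none fell, with a median log2 change of 1.25, and 31 rose and 2 fell with equal totals. The oligosaccharyltransferase subunits led this list. Ddost had 905 and 885 FPKM in PrePB, against 125 and 126 FPKM in ActB, and Rpn1, Krtcap2 and Rpn2 rose by 2.59, 2.51 and 2.31 on the log2 scale. Of 44 genes of ER to Golgi coats and cargo receptors, 40 rose and 1 fell, with a median log2 change of 1.30, and 40 rose and 4 fell with equal totals. The fall of 1 gene became 2 without PrePB replicate 2. Lman1, the lectin that carries glycoproteins out of the ER, had 284 and 291 FPKM in PrePB, against 37.4 and 34.1 FPKM in ActB. The coat subunit Sec24d rose by 2.53 and the coat regulator Arfgap3 by 2.51 on the log2 scale. Kdelr3, which returns ER proteins from the Golgi, rose by 2.51 but stayed low, with 4.96 and 5.58 FPKM in PrePB, against 0.211 and 0 FPKM in ActB.

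**Figure D2:**
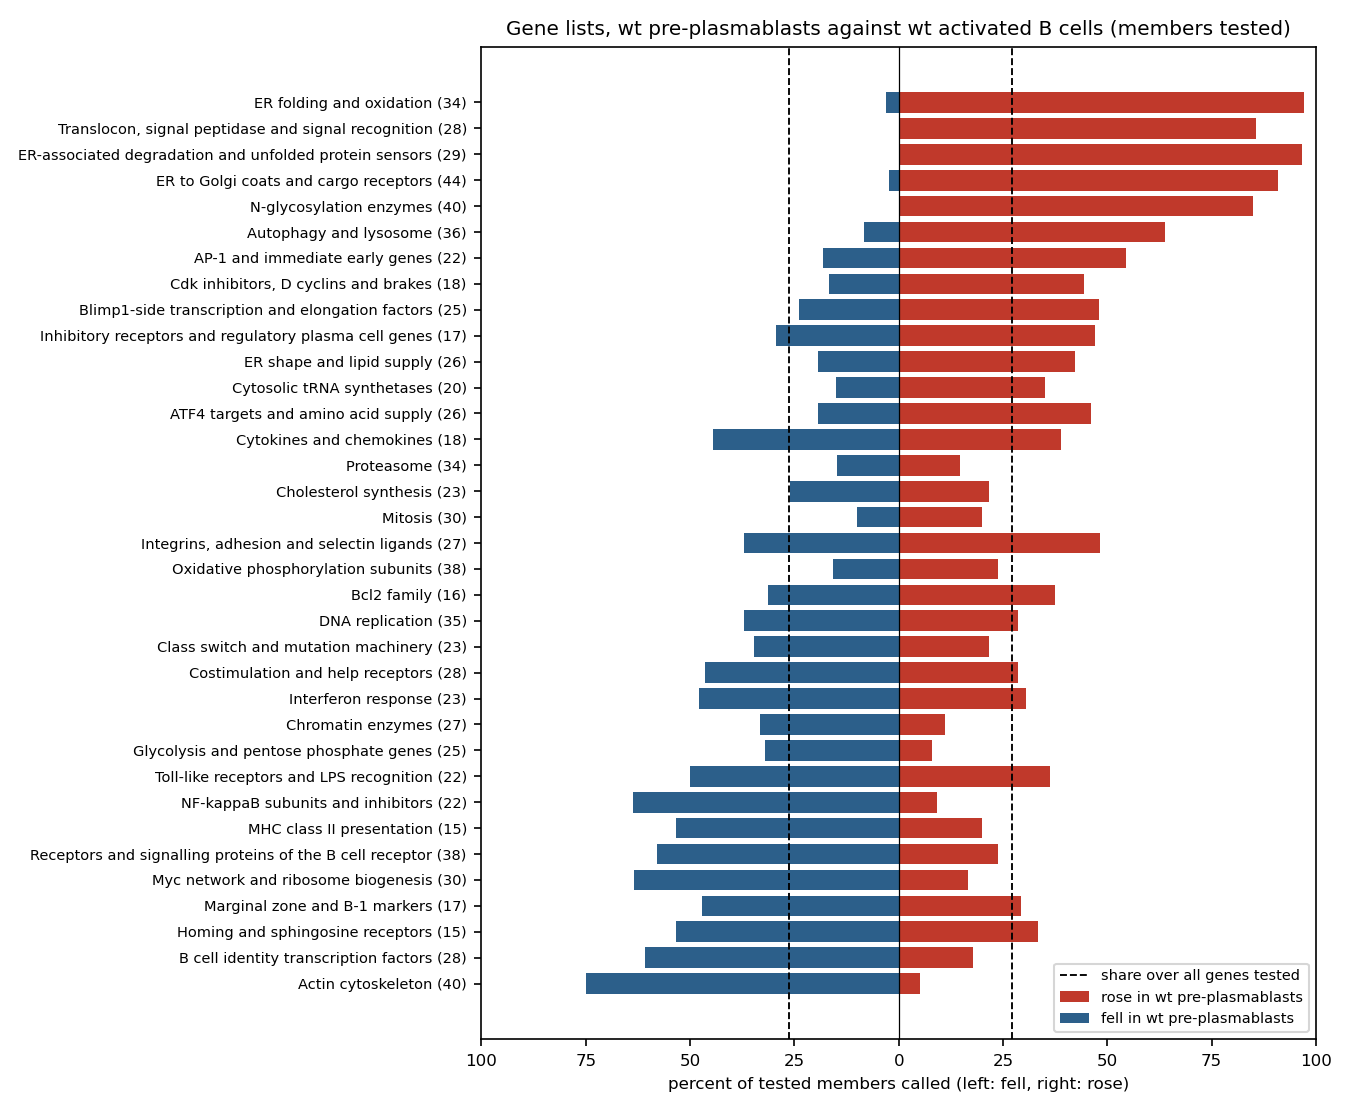
Percent of the tested members of each gene list that rose (red, right) or fell (blue, left) in wt PrePB against wt ActB, with the number tested in brackets. Dashed lines mark 27.1% higher and 26.3% lower over all 11069 genes tested. The 5 lists at the top belong to the secretory pathway, the list of ER shape and lipid supply lies below them, and the actin cytoskeleton list at the bottom has the lowest median.

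Promoters of these genes were searched for the ER stress element, the sequence that Atf6 and Xbp1 read together with the factor NF-Y. A promoter window was the 300 bases from 250 before to 50 after a gene start in RefSeq (GRCm38.p6), and 8892 of the genes tested (80.3%) had at least 1, of which 433 were matched through an older symbol. The letters CCAAT and CCACG with any 9 bases between them, on either strand, were found in 15 of 11264 windows (0.133%), of 15 genes. They are 0.169% of the genes with a window. Of these 15 genes, 11 rose and 2 fell, with a median log2 change of 2.16. The element stood in 9 of 845 genes that rose by at least 1 on the log2 scale (1.07%), in 0 of 559 that fell by at least 1, and in 11 of 161 genes of the secretory lists (6.83%). The sequences below show the element in capitals, read on the strand on which CCAAT comes first, in every gene with it that rose and then in the pair that fell. Genes in this group were chosen by the element, with their values known.
Derl3: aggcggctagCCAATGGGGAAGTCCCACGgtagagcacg
Creld2 and Alg12: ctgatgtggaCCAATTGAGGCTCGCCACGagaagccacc
Hsp90b1 distal: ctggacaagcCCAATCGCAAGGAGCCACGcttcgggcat
Hsp90b1 proximal: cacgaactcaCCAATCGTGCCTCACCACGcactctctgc
Pdia6: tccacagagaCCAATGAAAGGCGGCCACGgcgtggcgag
Ero1lb: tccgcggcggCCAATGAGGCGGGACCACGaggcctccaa
Dnajc3: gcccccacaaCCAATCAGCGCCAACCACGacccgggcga
Hspa5: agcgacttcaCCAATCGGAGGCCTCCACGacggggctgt
Calr: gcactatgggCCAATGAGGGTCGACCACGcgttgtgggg
Syvn1: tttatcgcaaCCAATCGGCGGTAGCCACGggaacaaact
Canx: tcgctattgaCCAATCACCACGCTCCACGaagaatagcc
Hnrnpa3: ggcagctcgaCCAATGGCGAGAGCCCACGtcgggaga
Adcy3: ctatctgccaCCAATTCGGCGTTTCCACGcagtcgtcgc

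In GRCm38.p6 the Derl3 stretch is chr10:75893232-75893270 (minus strand) and the stretch that Creld2 and Alg12 share between their divergent starts is chr15:88819510-88819548 (minus strand). Those of Hsp90b1 are chr10:86705628-86705666 (minus strand) and chr10:86705523-86705561 (plus strand). On the plus strand, Pdia6 is chr12:17266481-17266519, Dnajc3 chr14:118937817-118937855, Hspa5 chr2:34772015-34772053, Calr chr8:84847065-84847103, Syvn1 chr19:6046522-6046560 and Adcy3 chr12:4133241-4133279. On the minus strand, Ero1lb is chr13:12565672-12565710, Canx chr11:50325790-50325828 and Hnrnpa3 chr2:75659009-75659045. Every one of these elements lies before the gene start. The match is one of letters and not a measurement of binding.

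The genes with an element differed in level and in size of change. Hsp90b1, the ER form of Hsp90 and the only gene here with a pair of elements, had 4380 and 4490 FPKM in PrePB, against 606 and 589.6 FPKM in ActB (log2 change 2.89, SE 0.13, adjusted p = 3.32e-08). Hspa5, the ER chaperone BiP, had 2350 and 2451 FPKM in PrePB, against 492 and 463 FPKM in ActB (log2 change 2.33, SE 0.12, adjusted p = 6.86e-08). Calr, a lectin chaperone, had 3146 and 3126 FPKM in PrePB, against 676 and 729 FPKM in ActB. These 3 chaperones were among the 15 genes with the highest mean in PrePB. Creld2 rose by 3.23, the disulfide isomerase Pdia6 by 2.76, the oxidase Ero1lb by 2.54 and the cochaperone Dnajc3 by 2.51 on the log2 scale. Creld2 and Alg12 share a single element, and Alg12, a mannosyltransferase, rose by 0.67. Syvn1, the ubiquitin ligase of ER-associated degradation, and Canx, a membrane lectin chaperone, rose by 1.55 and 0.95. Hnrnpa3 changed by -0.39 and Adcy3 by -0.71, while Xlr3b at 0.39 and Pan2 at -0.32 did not pass the test. Hnrnpa3 lost its call without PrePB replicate 1 or ActB replicate 1. The short core GAAAG of the Blimp1 site, searched on both strands, was in 52.5% of all windows. It was in 58.7% of genes that rose by at least 1 on the log2 scale, 63.1% of genes that fell by at least 1 and 57.04% of all genes with a window. In Pdia6 it overlaps the ER stress element.

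Genes around the ER were less uniform. Of 26 genes of ER shape and lipid supply, 11 rose and 5 fell, with a median log2 change of 0.15 that became -0.08 with equal totals and 0.27 without ActB replicate 1. Ckap4, a protein of ER sheets, had 171 and 196 FPKM in PrePB, against 11.7 and 13.9 FPKM in ActB, and was 13.4-fold higher. Atl2, which fuses ER tubules, and Reep5, which bends them, rose by 1.69 and 1.08 on the log2 scale. Scd1, a fatty acid desaturase, had 88.5 and 69.3 FPKM in PrePB, against 219.6 and 231 FPKM in ActB. Of 36 autophagy and lysosome genes, 23 rose and 3 fell, with a median log2 change of 0.74, and 20 rose and 9 fell with equal totals. The protease Ctsl had 30.2 and 27.0 FPKM in PrePB, against 3.62 and 2.50 FPKM in ActB. Ctsd, another lysosomal protease, had 379 and 377 FPKM in PrePB, against 69.4 and 98.1 FPKM in ActB, Lamp2 rose by 2.10 and the autophagy protein Wipi1 by 2.72 on the log2 scale. Of 26 ATF4 targets and amino acid supply genes, 12 rose and 5 fell, and with equal totals 12 rose and 11 fell. The count of falls was 3 without PrePB replicate 2. Chac1, which breaks down glutathione, had 41.3 and 41.1 FPKM in PrePB, against 9.49 and 8.27 FPKM in ActB, and Slc3a2, a chain of amino acid transporters, rose by 1.96 on the log2 scale. Cebpb and Atf5, transcription factors downstream of ATF4, rose by 1.67 and 1.53.

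Of 38 genes of the B cell receptor and its signalling proteins, 22 fell (57.9%) and 9 rose (23.7%), beside 26.3% and 27.1% of all genes tested. The median log2 change was -0.44, and -0.68 with equal totals. Beside Cd22, the inhibitory receptors Pirb and Siglecg fell. Pirb had 0.840 and 1.39 FPKM in PrePB, against 21.7 and 28.5 FPKM in ActB, and Siglecg had 12 and 11.4 FPKM in PrePB, against 114 and 113 FPKM in ActB. The signalling chains of the receptor moved less, with log2 changes of 0.76 for Cd79a and -0.38 for Cd79b, and neither call was kept throughout. Cd79a lost it with quantile normalization. Cd79b lost it with no filter, in a fit on the compared groups alone and without PrePB replicate 1, PrePB replicate 2 or ActB replicate 2, and its change was -0.15 without ActB replicate 2. Ms4a1, the CD20 gene, changed by -0.73 on the log2 scale. Cd79a, Cd79b and Ms4a1 were chosen after their values were seen.

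Of 15 genes of MHC class II presentation, 8 fell (53.3%) and 3 rose (20%), with a median log2 change of -0.44, and 9 fell and 1 rose with equal totals. The median was -0.69 with equal totals, -0.77 with quantile normalization and -0.27 without ActB replicate 2. Ciita, the master activator of the class, had 8.01 and 7.67 FPKM in PrePB, against 62.8 and 66.4 FPKM in ActB (log2 change -2.89, SE 0.18, adjusted p = 3.85e-07). H2-Oa and H2-DMb2, which edit the peptides loaded, fell by 2.69 and 2.29 on the log2 scale, and the lysosomal reductase Ifi30 had 122 and 122 FPKM in PrePB, against 679 and 887 FPKM in ActB. Among the other members, H2-Aa, an antigen-presenting chain, and Cd74 were less changed. H2-Aa, chosen after its value was seen, had 1240 and 1079 FPKM in PrePB, against 1302 and 1569 FPKM in ActB (adjusted p = 0.108), and with quantile normalization or equal totals it passed as lower, at -0.77 and -0.55 on the log2 scale. Cd74, the invariant chain, likewise chosen afterwards, had 8635 and 8706 FPKM in PrePB, against 5499 and 6585 FPKM in ActB. Its direction depended on scaling, with a log2 change of 0.53 on the deposited values (adjusted p = 0.0339) and -0.64 with quantile normalization, and it lost the call with equal totals, with no filter, in a fit on the compared groups alone and without PrePB replicate 1, PrePB replicate 2 or ActB replicate 1.

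Of 28 costimulation and help receptors, 13 fell (46.4%) and 8 rose (28.6%), with a median log2 change of -0.10 that became -0.35 with equal totals and -0.44 with quantile normalization. The rises included Il5ra, a receptor chain for interleukin 5, with 15.7 and 17.2 FPKM in PrePB, against 1.28 and 1.47 FPKM in ActB. Il2rb, a chain of the interleukin 2 and 15 receptors, had 15.7 and 7.17 FPKM in PrePB, against 0.583 and 0.559 FPKM in ActB. Tnfrsf13b (TACI), a receptor of BAFF and APRIL, rose by 1.10 and Tnfrsf17 (BCMA) by 1.87 on the log2 scale, both chosen after their values were seen. Tnfrsf17 was still low, with 1.71 and 4.59 FPKM in PrePB, against 0 and 0.133 FPKM in ActB. Cd86 and Cd40, which serve contact with T cells and were also chosen afterwards, were lower. Cd86 fell by 2.19 on the log2 scale, and Cd40 had 18.7 and 9.93 FPKM in PrePB, against 67.0 and 62.7 FPKM in ActB.

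Of 22 Toll-like receptors and LPS recognition genes, 11 fell (50%) and 8 rose (36.4%), with a median log2 change of -0.38 that became -0.62 with equal totals. Beside Tlr9, the surface receptor Tlr1 had 1.56 and 1.48 FPKM in PrePB, against 23.4 and 27.0 FPKM in ActB. Ly86, the partner of the LPS-binding receptor Cd180, had 106 and 84.5 FPKM in PrePB, against 416 and 494 FPKM in ActB. Tlr4, the receptor of the ligand used in the culture and a gene chosen after its values were seen, lay at 3.27 and 2.46 FPKM in PrePB, against 3.10 and 2.64 FPKM in ActB, and the groups overlapped. Irf7, an interferon regulatory factor of this list, went the other way, with 103 and 113 FPKM in PrePB, against 5.67 and 5.65 FPKM in ActB (log2 change 4.03, SE 0.17, adjusted p = 2.70e-08). Of 22 NF-kappaB subunits and inhibitors, 14 fell and 2 rose, with a median log2 change of -0.40 that became -0.64 with equal totals. Traf1, Map3k14 (the kinase NIK), Nfkb1 and Nfkbid fell by 1.65, 1.49, 1.33 and 1.27 on the log2 scale. Nfkb1 had 52.6 and 56.9 FPKM in PrePB, against 134 and 145 FPKM in ActB. The 2 rises fell to 1 without PrePB replicate 1 and to 0 without any of the other 3 libraries, while the falls ran from 11 to 13.

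**Figure D3:**
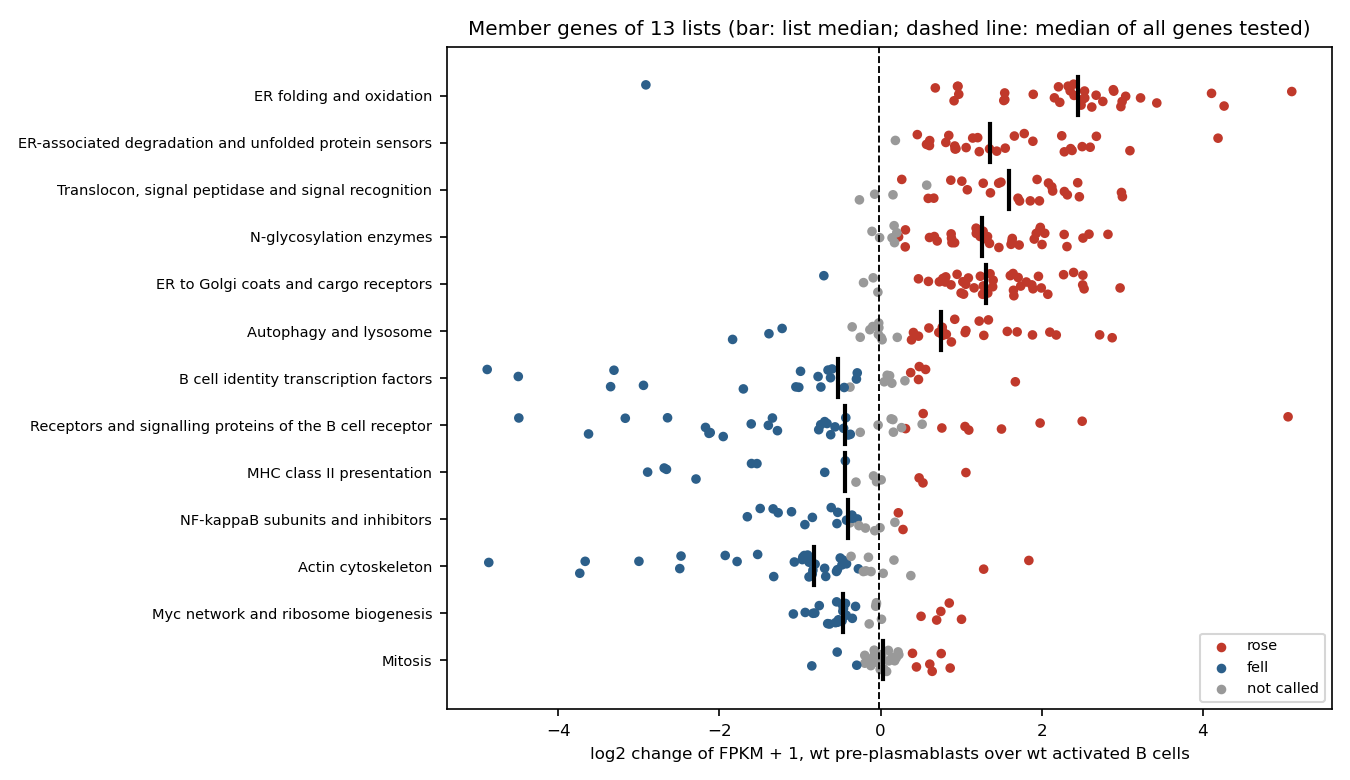
Log2 change of FPKM + 1, wt PrePB over wt ActB, of each tested member of 13 lists, in red where it rose, blue where it fell and grey where it did not pass the test. Black bars are list medians, from 2.45 for ER folding to -0.83 for the actin cytoskeleton, and the dashed line is the median of all genes at -0.02.

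The cytoskeleton list had the lowest median. Of 40 actin cytoskeleton genes, 30 fell and 2 rose, with a median log2 change of -0.83, and 35 fell and 2 rose with equal totals. The rises came to 1 without PrePB replicate 2 or ActB replicate 1. Vim, the intermediate filament vimentin, had 83.3 and 78.0 FPKM in PrePB, against 568 and 747 FPKM in ActB. Evl, which extends actin filaments, had 4.38 and 5.65 FPKM in PrePB, against 66.9 and 84.0 FPKM in ActB. S100a6, a calcium-binding protein related to S100a4, had 4.83 and 9.07 FPKM in PrePB, against 78.9 and 129 FPKM in ActB. Genes at high levels shared the direction. Actb had 1184 and 1106 FPKM in PrePB, against 2087 and 2395 FPKM in ActB, and Coro1a, an actin-binding protein of leukocytes, had 403 and 398 FPKM in PrePB, against 1041 and 1279 FPKM in ActB. Both were chosen after their values were seen.

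Of 27 integrin, adhesion and selectin ligand genes, 13 rose (48.1%) and 10 fell (37.0%). Itgb7, a chain of the gut-homing integrin, had 4.21 and 5.18 FPKM in PrePB, against 25.5 and 36.2 FPKM in ActB, and Itgb5 had 4.96 and 6.07 FPKM in PrePB, against 0.364 and 0.269 FPKM in ActB. Chosen after their values were seen, Itgb1, the common beta 1 chain, fell by 2.09 and Itgb2, the leukocyte beta 2 chain, rose by 1.02 on the log2 scale. Of 15 homing and sphingosine receptors, 8 fell (53.3%) and 5 rose (33.3%), with a median log2 change of -0.49. Ccr7, the receptor that draws cells to the T cell zone, had 5.61 and 7.12 FPKM in PrePB, against 73.4 and 84.6 FPKM in ActB (log2 change -3.44, SE 0.19, adjusted p = 1.26e-07). Ccr10, a mucosal homing receptor, had 7.15 and 6.90 FPKM in PrePB, against 1.40 and 0.807 FPKM in ActB. S1pr4, a sphingosine phosphate receptor, fell by 1.41 on the log2 scale. Cxcr4, which holds plasma cells in the bone marrow and was chosen after its values were seen, had 198 and 199 FPKM in PrePB, against 75.1 and 95.7 FPKM in ActB. S1pr1, the egress receptor, likewise chosen afterwards, lay at 27.7 and 34.2 FPKM in PrePB and at 42.3 and 45.3 FPKM in ActB (adjusted p = 0.106). It passed as lower with equal totals, with the replicate block and in a fit on the compared groups alone. Ccr9 rose by 0.84 on the log2 scale, with 1.34 and 1.21 FPKM in PrePB, against 0.228 and 0.319 FPKM in ActB, a call lost without PrePB replicate 1 or ActB replicate 1.

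Of 17 inhibitory receptors and regulatory plasma cell genes, 8 rose and 5 fell. Beside Lag3 and Tigit, Ctla4, the inhibitory partner of Cd28, had 137 and 125 FPKM in PrePB, against 13.6 and 7.62 FPKM in ActB. Lgals3, a galectin, had 2.69 and 2.49 FPKM in PrePB, against 17.8 and 38.9 FPKM in ActB. Of 18 cytokines and chemokines, 7 rose and 8 fell. Il10, an anti-inflammatory cytokine, had 148 and 100.2 FPKM in PrePB, against 14.7 and 17.3 FPKM in ActB (log2 change 2.85, SE 0.31, adjusted p = 2.02e-05). The chemokines Ccl3 and Ccl4 rose by 2.98 and 2.64 on the log2 scale, while Il6 had 1.31 and 0.508 FPKM in PrePB, against 11.4 and 11.8 FPKM in ActB. Of 23 interferon response genes, 7 rose (30.4%) and 11 fell (47.8%), with a median log2 change of -0.12 that became -0.29 without PrePB replicate 1, -0.32 with equal totals and -0.21 with quantile normalization. Isg20, a nuclease, had 209 and 213 FPKM in PrePB, against 11.4 and 12 FPKM in ActB, and the GTPase Gbp2 had 5.6 and 6.63 FPKM in PrePB, against 58.5 and 74.6 FPKM in ActB. Oas2, which senses viral RNA, fell by 2.19 on the log2 scale.

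Of 22 AP-1 and immediate early genes, 12 rose and 4 fell, with a median log2 change of 0.58 that became 0.33 with equal totals. Fos had 121 and 109 FPKM in PrePB, against 18.9 and 9.89 FPKM in ActB, and Egr1 had 173 and 184 FPKM in PrePB, against 39.4 and 19.8 FPKM in ActB. The phosphatase Dusp1 and the factor Egr2 rose by 2.78 and 2.64 on the log2 scale. The count of falls was 2 without PrePB replicate 1 or ActB replicate 2. Among them, Batf, which acts with Irf4 in class switching, had 73.7 and 77.7 FPKM in PrePB, against 200.1 and 204 FPKM in ActB. Of 17 marginal zone and B-1 markers, 8 fell and 5 rose, with a median log2 change of -0.49. Zbtb32, a repressor of activated lymphocytes, had 29.2 and 23.3 FPKM in PrePB, against 298 and 366 FPKM in ActB. Plscr1, a phospholipid scramblase, fell by 2.71 and Myof, a membrane repair protein, rose by 2.81 on the log2 scale.

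Of 16 Bcl2 family genes, 6 rose and 5 fell, shares of 37.5% and 31.3% that lie near the 27.1% and 26.3% of all genes, and with equal totals 4 rose and 8 fell. Bcl2l1, which encodes the survival protein Bcl-xL, had 128 and 121 FPKM in PrePB, against 13.9 and 13.8 FPKM in ActB (log2 change 3.08, SE 0.08, adjusted p = 2.02e-09). Bcl2l11, which encodes the death-promoting protein Bim, had 186 and 172 FPKM in PrePB, against 36.0 and 30.1 FPKM in ActB. Bcl2a1b and Bcl2a1d fell by 2.28 and 2.27 on the log2 scale. They are near-identical copies, so how reads were divided between them is uncertain. Of 18 Cdk inhibitors, D cyclins and brakes, 8 rose and 3 fell, with a median log2 change of 0.24 that became 0.0023 with equal totals and 0.39 without ActB replicate 2. Cdkn2a and Cdkn2b, which encode inhibitors of Cdk4 and Cdk6, rose by 2.07 and 2.37. Ccnd3, the cyclin D3 gene, had 20.7 and 22.9 FPKM in PrePB, against 78.8 and 96.9 FPKM in ActB, and Cdkn2d fell by 1.68 on the log2 scale.

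Of 30 mitosis genes, 6 rose and 3 fell, and with equal totals 4 rose and 6 fell, so a change of the group was not seen. Both shares were below those of all genes. Mki67 had 121 and 172 FPKM in PrePB, against 103 and 60.7 FPKM in ActB, and lost its call without PrePB replicate 2. Foxm1 rose by 0.75, Ube2c by 0.64 and Kif23 changed by -0.85 on the log2 scale. Of 35 DNA replication genes, 10 rose and 13 fell, against 5 and 17 with equal totals and 5 and 9 without replicate 1 of both groups. The polymerase subunit Pold1 had 21.7 and 23.1 FPKM in PrePB, against 49.1 and 49.5 FPKM in ActB, while the nuclease Fen1 had 139 and 145 FPKM in PrePB, against 72.3 and 71.1 FPKM in ActB. The licensing factor Cdt1 rose by 0.83 and E2f2 fell by 0.78 on the log2 scale. Of 23 class switch and mutation genes, 5 rose and 8 fell, against 2 and 13 with equal totals. The repair endonuclease Apex1 had 43.0 and 28.5 FPKM in PrePB, against 85.4 and 93.8 FPKM in ActB, and the ligase Lig4 rose by 1.66 on the log2 scale.

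Of 30 genes of the Myc network and ribosome biogenesis, 19 fell and 5 rose, with a median log2 change of -0.46. Dkc1, a pseudouridine synthase, had 31.7 and 27.3 FPKM in PrePB, against 65.3 and 61.6 FPKM in ActB, and Npm1, a nucleolar protein, had 117 and 91.4 FPKM in PrePB, against 199.8 and 197 FPKM in ActB. Mxd4 and Mxi1, which oppose Myc, rose by 1.01 and 0.85 on the log2 scale. Myc itself, chosen after its values were seen, lay at 60.5 and 47.2 FPKM in PrePB, against 54.4 and 51.7 FPKM in ActB, and the groups overlapped. Of 27 chromatin enzymes, 3 rose and 9 fell, against 1 and 14 with equal totals. The deacetylase Hdac7 rose by 1.39, and the methyltransferase Dnmt3a, the demethylase Tet3 and the deacetylase Hdac1 fell by 1.39, 1.29 and 1.08 on the log2 scale.

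In lists of housekeeping metabolism the balance of rises and falls went with the scaling. Of 38 oxidative phosphorylation subunits, 9 rose and 6 fell, but with equal totals 4 rose and 19 fell and with quantile normalization 5 rose and 15 fell. Without PrePB replicate 1 the rises were 5, and the falls were 3 without PrePB replicate 2 and 2 without ActB replicate 2. Ndufa1 stood out, with 527 and 534 FPKM in PrePB, against 165 and 187 FPKM in ActB, while Uqcrq, Sdhc and Ndufa2 rose by 0.76, 0.74 and 0.63 on the log2 scale. Of 34 proteasome genes, 5 rose and 5 fell, but 1 and 18 with equal totals and 3 and 13 with quantile normalization. Leaving out PrePB replicate 1 or ActB replicate 1 left 3 rises, and the falls were 3 without PrePB replicate 2 or ActB replicate 1 and 2 without ActB replicate 2. Psme4, a proteasome activator, had 48.4 and 54.7 FPKM in PrePB, against 26.8 and 23.7 FPKM in ActB. The subunits Psma6 and Psmb8 fell by 0.77 and 0.50 on the log2 scale, and Psmb6 rose by 0.45, a call lost with equal totals.

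Of 25 glycolysis and pentose phosphate genes, 2 rose and 8 fell, against 1 and 14 with equal totals, and 4 fell without PrePB replicate 2. Gpi1 had 58.5 and 57.1 FPKM in PrePB, against 87.5 and 97.5 FPKM in ActB, and Tkt fell by 0.61 on the log2 scale. Aldoc and Pgam1 had changes of -0.82 and -0.76 that lost the call without PrePB replicate 2, and reads of Pgam1 may be shared with processed copies. Of 23 cholesterol synthesis genes, 5 rose and 6 fell, against 3 and 8 with equal totals. The falls came to 3 without PrePB replicate 2 or ActB replicate 1. Insig1, which restrains sterol synthesis, had 104 and 84.6 FPKM in PrePB, against 32.2 and 29.1 FPKM in ActB, and Ebp rose by 0.92 while Mvd and Acat2 fell by 0.65 and 0.57. Of 20 cytosolic tRNA synthetases, 7 rose and 3 fell, and with equal totals 3 rose and 8 fell. Yars, Nars and Mars rose by 0.71, 0.65 and 0.62, and Farsb fell by 0.44 on the log2 scale.

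The same step in Mzb1 ko cells, which shares no library with the wt step, gave 5996 called genes (54.2%). All 15 of the largest wt rises and all 15 of the largest falls were called in ko cells too. Of the 169 genes called among those the naming rule picked, 166 were called in ko cells with the same sign. Jchain changed by 8.08 in ko cells, against 6.74 in wt cells, and Pax5 by -3.29 in ko cells, against -3.35 in wt cells. The difference between the steps, ko minus wt, was called for 4 genes (0.0361%) after adjustment. Of the 11069 genes tested, 395 had an unadjusted p below 0.05 in the limma interaction test. That share is itself below 0.05, so the count is not read as further differences. One of the 4 was Mzb1 itself, the gene targeted in the ko cells. It had 899 and 871 FPKM in ko PrePB and 273 and 289 FPKM in ko ActB, so each ko library lay below the wt libraries of its own population, while ko PrePB were at the level of wt ActB (845 and 1016 FPKM). A value per gene does not show which part of the transcript was left, so it is no full check of the deletion. Its step was 1.65 on the log2 scale in ko cells, against 3.43 in wt cells (difference -1.78, adjusted p = 0.007). Without wt PrePB replicate 1 the adjusted p of this difference was 0.0675, and without wt PrePB replicate 2 it was 0.0616, and the count of 4 genes became 1 in either case. It became 2 without wt ActB replicate 1. The ko PrePB replicate 2 library gave 14.2% of its total to small RNA genes, against 0.981% to 5.71% in the other 11 libraries.

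**Figure D4:**
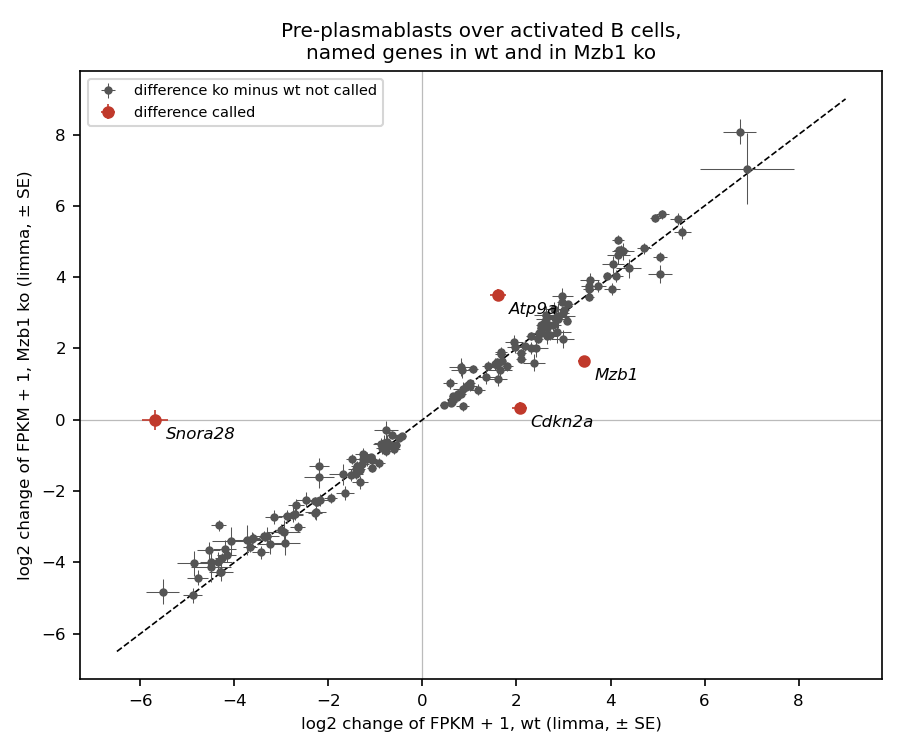
Log2 change of FPKM + 1 in PrePB over ActB (± SE, limma) of the 169 named genes that were called in wt, in ko cells (vertical axis) and in wt cells (horizontal axis). Most points lie near the dashed line of equal change, and the 4 genes in red, Snora28, Atp9a, Mzb1 and Cdkn2a, passed the test of the difference.

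The wt PB libraries give the level that followed. Since PB against PrePB shares the PrePB libraries with the comparison above, the values are set side by side only. That later step called 966 genes (8.73%). Xbp1 lay at 99.7 and 105 FPKM in ActB, 1579 and 1568 FPKM in PrePB and 2363 and 2519 FPKM in PB. Hspa5 lay at 492 and 463 FPKM in ActB, 2350 and 2451 FPKM in PrePB and 2321 and 2519 FPKM in PB. Prdm1 was at 218 and 226 FPKM in PB and had been at 233 and 268 FPKM in PrePB. In PB over PrePB, Prdm1 changed by -0.17 and Hspa5 by 0.01 on the log2 scale, while Xbp1 was higher in PB than in PrePB by 0.63 on the log2 scale (limma, adjusted p = 0.00356). Mzb1 was also higher in PB, at 15434 and 17359 FPKM (log2 change over PrePB 0.71, limma adjusted p = 0.00812). Jchain had 19054 and 22617 FPKM in PB, a log2 change over PrePB of 1.18 that did not pass the test (limma adjusted p = 0.0660). Pax5 had 2.02 and 2.76 FPKM in PB, below 13.6 and 13.8 FPKM in PrePB, and Cd22 had 1.26 and 0.971 FPKM in PB, below 12.7 and 12.7 FPKM in PrePB. Prg2 had 17.0 and 12.8 FPKM in PB, below 38.6 and 52.5 FPKM in PrePB.

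**Figure D5:**
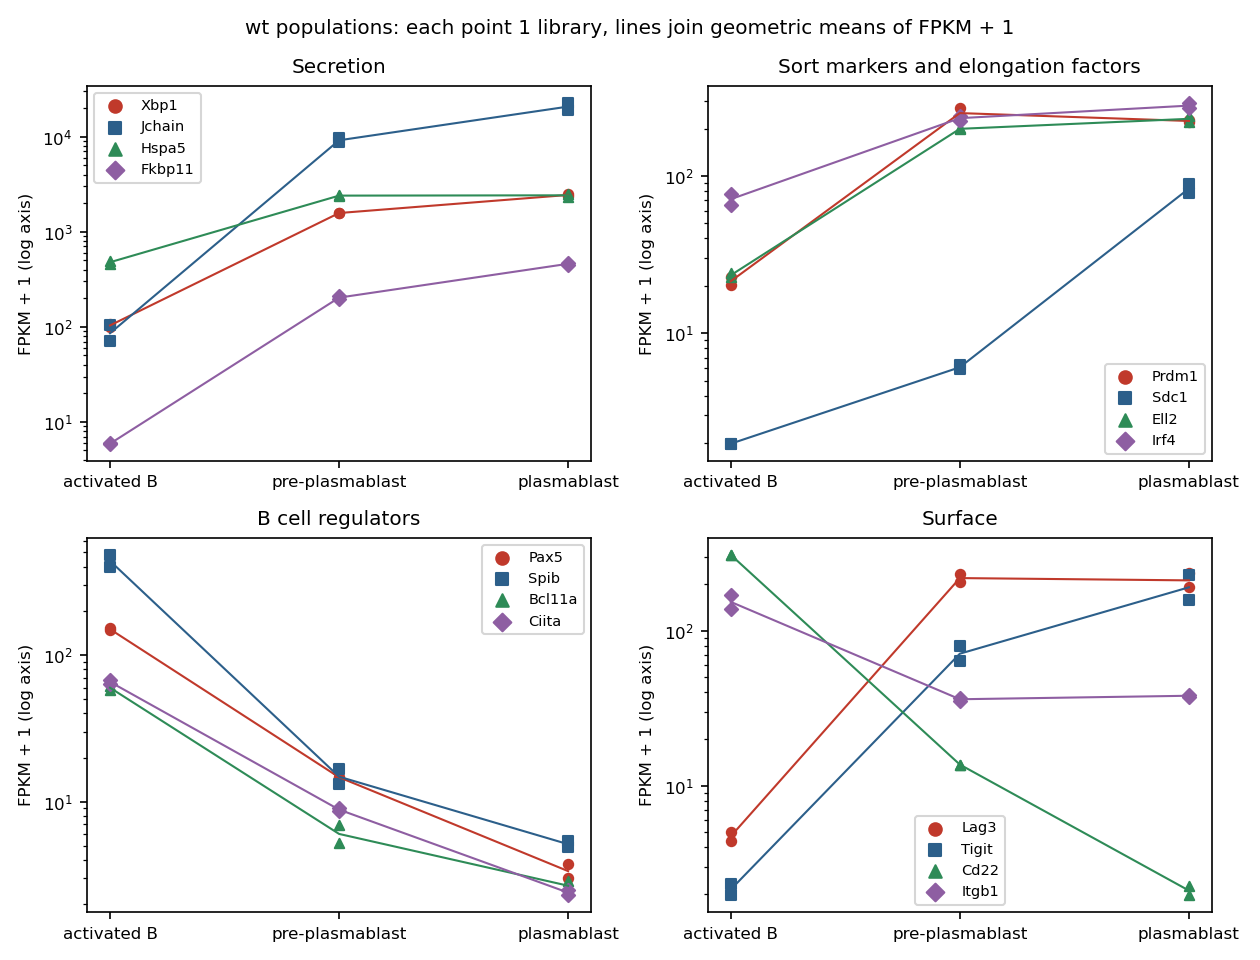
FPKM + 1 on a log axis in wt ActB, PrePB and PB, 1 point per library, with lines through the geometric means, for 16 genes in 4 panels. Most of the rise of Xbp1, Prdm1, Ell2 and Irf4 lies between ActB and PrePB, Sdc1 rises mainly between PrePB and PB, and Pax5, Spib, Bcl11a and Ciita are lower at each later population.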

How the data were processed

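The deposited values are FPKM, 1 file per library with 24325 gene symbols, made by the authors. Tools named, per the submitters' processing notes, are TopHat2 2.0.14, Cufflinks 2.2.1, Cuffdiff and Cuffnorm 2.2.1, with the mm9 build. The gene annotation and library scaling are not given in the sources used here, and a stranded TruSeq mRNA kit was used, per the labels' protocols. Values were taken as log2(FPKM + 1). A gene was tested where 2 or more of the 12 libraries reached 1 FPKM, with limma 3.58.1 (limma-trend, R 4.3.3) in a fit with 1 coefficient for each of 6 groups. Calls used a Benjamini-Hochberg adjusted p below 0.05, folds are on the FPKM + 1 scale and understate low genes, and errors are limma standard errors. The fit was tested on simulated data. Figures used matplotlib in Python 3.11.15.

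The comparison, the 41 gene lists (35 of functions, 6 of other cells or sex; 1017 symbols) and the naming rule were chosen with earlier results of these data known. The rule named Prdm1, Sdc1, Xbp1, Jchain and Mzb1, the 15 largest rises and falls with at least 5 FPKM in the higher group and no overlap, small RNA genes excepted, up to 4 called members of each list by size of change, or the 2 of lowest p where fewer than 2 were called, and up to 5 interaction genes each way. Some genes the rule picked are not reported here. Lists are described by counts and medians beside those of all genes. Alternatives were no filter or a 5 FPKM filter, a pseudocount of 0.1, quantile, equal-total and median-ratio scaling, a fit on the compared groups, a replicate block, a minimum log2 change of 1 (limma treat), no small RNA genes, and leaving out each library or wt replicate 1. The protein sequences of the members were not analysed here.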

Additional observations from a re-analysis of the deposited data

Results flagged for a closer look

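The change of PrePB over ActB differed between ko and wt cells for 4 genes by the limma interaction test. Snora28, a small nucleolar RNA, had a ko minus wt difference of 5.69 on the log2 scale (adjusted p = 0.00042). It was listed at 0 in the PrePB and ActB libraries of ko cells and in wt PrePB, and had 76.2 and 33.5 FPKM in wt ActB. An exact 0 in files without counts may be a failed estimate. Mzb1 had a difference of -1.78, and it is the gene targeted in ko cells. Atp9a, a lipid flippase, had a difference of 1.89 (adjusted p = 0.0465), with a step of 3.50 in ko cells, against 1.61 in wt cells. Its level was 14 and 15.3 FPKM in ko PrePB, against 2.74 and 2.23 FPKM in wt PrePB. Cdkn2a had a difference of -1.75 (adjusted p = 0.0466), with a step of 0.32 in ko cells, against 2.07 in wt cells. Its level was 49.3 and 47.5 FPKM in ko ActB, against 23.7 and 25.3 FPKM in wt ActB. The calls of Atp9a and Cdkn2a were lost with no filter, with a pseudocount of 0.1, with treat and without any single one of the 4 wt libraries, and that of Atp9a also with a filter of 5 FPKM. Mzb1 lost its call with no filter, with treat, without either wt PrePB library and without replicate 1 of both wt groups.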

How the results depend on the processing

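With a minimum log2 change of 1 (treat), 886 genes were called, 572 higher and 314 lower. All of the 886 exceeded that change, which the test requires of any call. With equal totals 4679 genes were called lower. The genes called in the interaction were 2 with a pseudocount of 0.1, 1 with treat, and 1 to 5 when 1 library or wt replicate 1 was left out. Leaving out 1 library or wt replicate 1 gave 4265 to 5037 called genes, 2233 to 2633 higher, 2032 to 2437 lower and 1793 to 1906 with at least 1 log2. Among the alternatives listed here, Cd74 was the named gene that turned, to -0.64 with quantile normalization. Of 203 called genes that the rule picked or the text followed up, 189 kept sign and call under every alternative other than treat. Replicate differences of wt PrePB and wt ActB correlated at 0.046 across genes. For wt PB the correlation was 0.316 with wt PrePB and 0.239 with wt ActB, and for ko PrePB with ko ActB it was 0.291. Between wt and ko it was -0.0822 in PrePB and -0.110 in ActB. The labels name no shared animal, and the numbers were not read as a pairing. Whether libraries of the same number share an animal or a culture was not tested. The replicate block, with the replicate number as a term, gave 6362 called genes (3181 higher and 3181 lower) and moved no count of calls over all genes by more than 1.5 times. Equal totals moved the most list counts by over 1.5 times (26), beside treat with 67. Absolute depth is unknown, and 2 libraries a group limit the precision of each single gene.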
